A study of Caenorhabditis elegans with 4 samples.

Results

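The 340 regions described here are the binding sites of CEH-16 called on chromosome IV of Caenorhabditis elegans, out of 1848 called on all 6 chromosomes. The rule that chose them was position alone, as the peaks of the combined list placed on chromosome IV. Neither strength nor width entered that rule, though the choice was made with earlier results of these data known. The study used chromatin immunoprecipitation and sequencing (ChIP-seq), which recovers DNA crosslinked to a protein and reads it, in hermaphrodites of strain OP82 raised at 20 °C to the L2 larval stage. The immunoprecipitated group (ChIP, 2 libraries) was pulled down with antibodies to GFP, and the Input group (2 libraries) is chromatin set aside before the pull-down. All 4 libraries share 1 genotype, the mutation unc119(ed3) with the transgene wgIs82, which joins ceh-16 to TY1, EGFP and FLAG tags and carries unc119 as a rescue marker. The transgene was placed in the genome by biolistic transformation, per the labels, so tagged CEH-16 is made from added copies of the gene, and whole animals were used. Input values were not analysed here. Nothing in the labels tells whether the 2 replicates were separate cultures, so any spread between them may be technical.

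CEH-16 is the worm's homeodomain protein of the Engrailed family, a DNA-binding transcription factor known for its part in the seam cells, the stem-like lateral cells of the epidermis that divide repeatedly during larval life. Homeodomain proteins bind short AT-rich sites, and a called region in a whole-animal pull-down can come from a small share of its cells. Worm autosomes have a gene-dense centre with little meiotic crossing over, flanked by arms that recombine more and hold more repeats. Chromosome IV is also known for the broad clusters of 21U-RNA (piRNA) genes along it. No gene or sequence is given for any region, because the lists use the WS220 build, of which no genome or annotation was used here.

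Each list gives, for every peak, a start, an end and a q-value, which is the authors' own value for the peak and is smaller where the evidence for the peak was stronger. The read depth behind the lists is unknown. Chromosome IV held 199 of the 1017 peaks of replicate 1, 142 of the 785 peaks of replicate 2 and 340 of the 1848 peaks of the combined list. On IV the combined peaks covered 159 kb between 51205 and 17281465, and the highest q-value in the combined list was 0.00991. A peak is said here to be met in a replicate when it shares at least 1 bp with a peak of that replicate's list. Peaks are not replicates of a condition, so shares of peaks are given with exact binomial intervals (Clopper-Pearson, 95%) that cover the counting of peaks alone, and differences between chromosomes or between parts of IV were not tested.

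Chromosome IV was in the middle of the chromosomes by number and density of peaks, and held more of the 50 strongest peaks than any other. It held 18.4% of combined peaks (16.7 to 20.2%), or 19.7 per Mb from its first to its last peak, the third highest density after X and II. The density on the other 5 chromosomes ranged from 12.2 per Mb on I to 24.5 per Mb on X. Its share was 19.6% in the list of replicate 1 and 18.1% in that of replicate 2. Among the 185 strongest combined peaks, the strongest 10%, IV held 38, which is 20.5% (14.96 to 27.1%). These were 11.2% of the IV peaks (8.03 to 15.02%), against 9.75% of the peaks on the other chromosomes (8.30 to 11.4%) and 10.0% of all peaks, so the intervals overlap. The cut fell between q-values of 2.85e-13 and 3.18e-13. It held 24 of the 100 strongest peaks and 17 of the 50 strongest, where the other chromosomes held at most 22 and 10, counts given as a description and not tested.

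**Figure D1:**
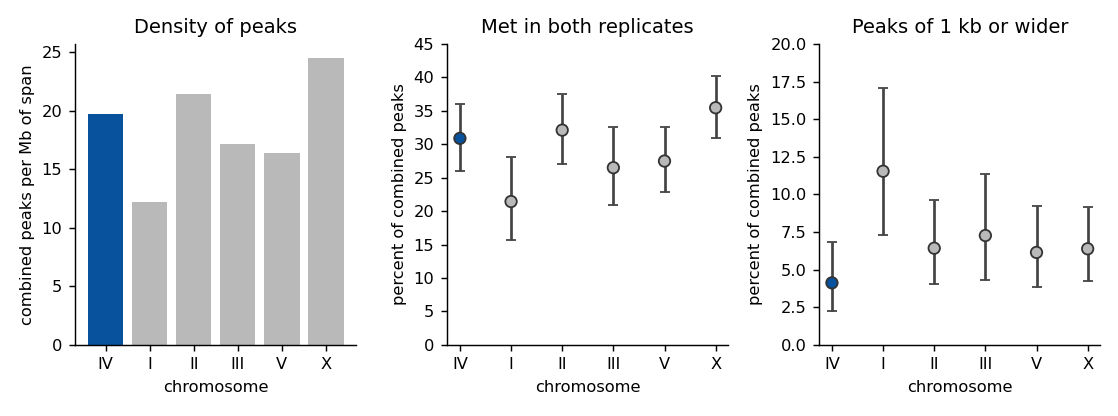
Combined peaks per Mb of span (bars), and the percent of combined peaks met in both replicates and the percent at least 1 kb wide (points, with 95% exact binomial intervals), for IV and the other 5 chromosomes. X and II stand above IV in density (19.7 per Mb on IV) and in the share met in both (30.9% on IV), and IV is lowest in the share of wide peaks (4.12%).

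The strongest site of the whole list lay on the right arm of IV, at 14032486 to 14034987. It was 2502 bp wide, with a combined q-value of 1.72e-64. Each replicate had called it as 1 peak, which in replicate 1 was 2374 bp wide with a q-value of 1.60e-43 and in replicate 2 was 1960 bp wide with a q-value of 1.14e-25. It was the strongest IV peak of replicate 1 and the second strongest of replicate 2. The strongest IV peak of replicate 2 was the one in the centre at 9615196 to 9616018, with a combined q-value of 3.03e-55, where replicate 1 gave 9.61e-24 and replicate 2 gave 2.40e-33. On the left arm the strongest peak spanned 3232633 to 3234734, with a combined q-value of 5.43e-49, where replicate 1 gave 2.04e-28 and replicate 2 gave 7.89e-21. These leaders of the arms and the centre were at ranks 1, 3 and 5 among all 1848 peaks.

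The next 4 IV peaks followed with combined q-values from 1.79e-41 to 1.92e-37. The peak at 4400731 to 4401400 was compact, 670 bp wide, and replicate 1 gave it 8.83e-28 and replicate 2 gave it 7.88e-20. The peak at 1548416 to 1550198 was met by 2 peaks in each replicate, the stronger of which had a q-value of 3.07e-17 in replicate 1 and 2.18e-08 in replicate 2. The combined list thus drew as 1 region what both replicates drew as a pair. The peak at 13695496 to 13696385 was at 3.35e-19 in replicate 1 and 2.58e-21 in replicate 2. The peak at 9616554 to 9618393 was at 3.33e-21 in replicate 1 and 6.95e-17 in replicate 2, so neither replicate was the stronger for both. The other 8 of the 15 strongest had combined q-values from 2.32e-29 to 4.01e-26, and the next followed at 1.32e-23. Of the 15, 7 lay on the right arm, 4 in the centre and 4 on the left arm.

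The peak at 761611 to 764015, within the 15 strongest, was met by 2 peaks in each replicate. Its combined q-value was 2.04e-26. The replicate peak that shared the most bases with it had 1.09e-13 in replicate 1 and 0.000831 in replicate 2. That replicate 2 peak was at rank 84 on IV. The other replicate 2 peak that met it is not given here and may be stronger. By the same rule, all the other 14 had a replicate 2 peak within the 27 strongest on IV. Among IV peaks met once in each replicate, some had a much smaller q-value in replicate 1. After the strongest site itself, the largest such imbalance was at 4028170 to 4028646, with 5.58e-11 in replicate 1 and 0.00573 in replicate 2. In the other direction, the largest imbalance was at 9615196 to 9616018, whose values are above. The next, at 8824197 to 8824815, had 0.000189 in replicate 1 and 9.92e-12 in replicate 2. The depths of the libraries are unknown, so these are differences between the lists and say nothing of an amount of binding.

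**Figure D2:**
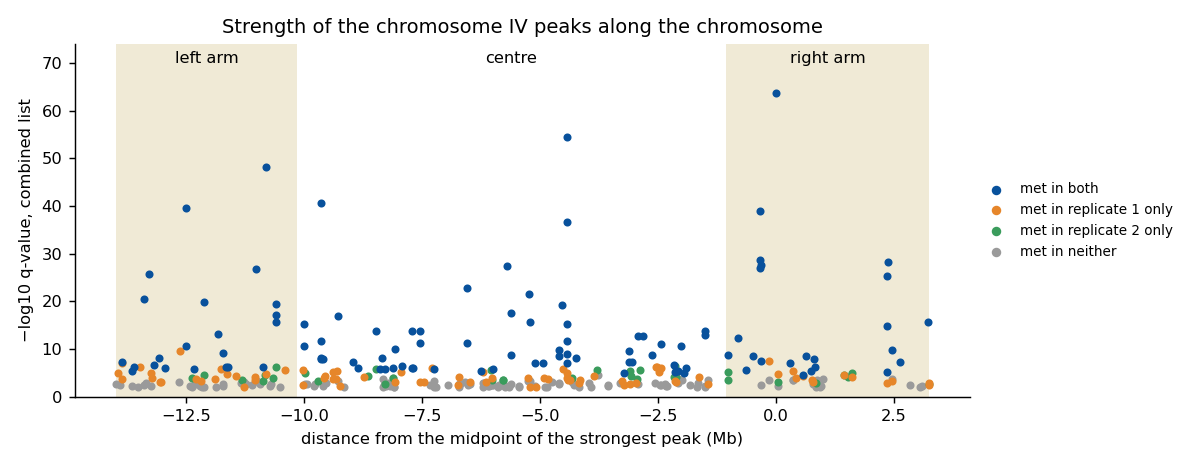
The −log10 q-value of each of the 340 chromosome IV peaks in the combined list against its distance from the midpoint of the strongest peak, coloured by the replicates that met it, with the arms shaded. The tallest points, from 1.72e-64 (63.8 on this scale) downwards, are spread over both arms and the centre, and all of the 50 strongest are met in both replicates.

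The centre of IV held more peaks per Mb than the arms, while peaks met in both replicates and the strongest peaks were spread more evenly. The domains were set by midpoint, with the left arm under 3.896 Mb and the right arm over 12.970 Mb. The centre held 205 peaks (60.3%, 54.9 to 65.5%) in 52.7% of the span, or 22.6 per Mb. The left arm held 76 (22.4%) in 22.3% of the span, or 19.8 per Mb, and the right arm 59 (17.4%) in 25.02%, or 13.7 per Mb. The density in the centre was thus 1.36 times that of the arms together, with an interval of 1.09 to 1.71. A fuller centre was not particular to IV. With each span cut into 3 equal parts, the middle part held 38.5% of the IV peaks and 39.4% of those elsewhere. Among the other chromosomes it ranged from 32.2% on X to 48.5% on V. Peaks met in both replicates were nearly even, at 6.61 per Mb in the centre, 5.72 on the left arm and 5.33 on the right arm. Peaks met in neither were not, at 8.82 per Mb in the centre, 7.02 on the left arm and 3.48 on the right arm. Strong peaks, those among the 185, came to 2.09 per Mb in the centre, 2.60 on the left arm and 2.09 on the right arm, and for these the ratio of centre to arms was 0.899. That subset was chosen after the values were seen, and the density of peaks by class was not tested.

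The right arm had the fewest peaks and the largest share met in both replicates. Of its 59 peaks, 23 (39.0%, 26.5 to 52.6%) were met in both replicates and 15 (25.4%, 14.98 to 38.4%) in neither. In the centre 60 of 205 (29.3%, 23.1 to 36.01%) were met in both and 80 (39.0%, 32.3 to 46.1%) in neither, and on the left arm 22 of 76 (28.9%, 19.1 to 40.5%) were met in both and 27 (35.5%, 24.9 to 47.3%) in neither. The intervals overlap. The median q-value was 3.31e-05 on the right arm, 0.000234 in the centre and 0.000115 on the left arm, and the median width was 480 bp on the right arm, 366 bp in the centre and 390 bp on the left arm. The midpoint closest to the right bound was 43.4 kb from it, and the one closest to the left bound was 129 kb away.

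By megabase, the IV counts ran from 6 to 30 over 17 full windows, with a median of 19, and the densest window was 8 to 9 Mb. The windows from 9 to 10 Mb (29 peaks), 11 to 12 Mb (28 peaks) and 4 to 5 Mb (27 peaks) came next. The sparsest was 15 to 16 Mb, with 6 peaks, none of which was met in both replicates. The densest window on the other chromosomes held from 19 peaks on I to 50 on II. IV thus had no window as crowded as that of II, X (40 peaks) or V (32 peaks). The 2 densest windows, 8 to 9 Mb and 9 to 10 Mb, held 4 strong peaks each, and the sparsest held 0. Other windows did not follow their number of peaks. The window from 3 to 4 Mb held 18 peaks and had the most strong ones, 5, while 11 to 12 Mb held 28 peaks with 2 strong, and 10 to 11 Mb held 17 peaks with 0 strong. The window from 13 to 14 Mb held 14 peaks, but 9 of them (64.3%) were met in both replicates and 4 were strong, and its median q-value, 1.60e-08, was the smallest of any IV window. At 7 to 8 Mb, by contrast, 3 of 21 peaks (14.3%) were met in both and 13 in neither, with a median q-value of 0.00170.

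Of the 340 peaks, 105 were met in both replicates, which is 30.9% (26.0 to 36.1%), against 450 of 1508 on the other chromosomes and 30.0% of all combined peaks. Chromosomes I, with 21.4%, and X, with 35.5%, marked the ends of the range. Another 79 IV peaks (23.2%) were met in replicate 1 only (21.8% of all peaks), 34 (10.0%) in replicate 2 only (11.3% of all), and 122 (35.9%) in neither (36.9% of all). Each of these shares was close to that of the whole list. Requiring 50% of the shorter peak left the count at 105, so each of them shared at least 50% of the shorter peak with both replicates.

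The stronger a peak was in the combined list, the more often both replicates met it. The 50 strongest IV peaks were all met in both replicates. This was not particular to IV: among the strongest 10% of all combined peaks, all 38 on IV and all 147 elsewhere were met in both. When the IV peaks were cut by strength into 10 classes of 34, class 1 (the strongest) had 34 met in both, class 2 had 33, class 3 had 24, class 4 had 13 and class 5 had 1, and classes 6 to 10 had 0. The combined and replicate q-values come from the same libraries, so this is a description and no independent check. The first exception, 1420173 to 1420477, had a combined q-value of 2.87e-10 and was met in replicate 1, while the nearest IV peak of replicate 2 was 127 kb away. The second, 13887371 to 13888109 (q-value 3.29e-08), was likewise met in replicate 1, with the nearest peak of replicate 2 at 144 kb. The strongest peak met in neither, 10261138 to 10261469, ranked 141 on IV with a q-value of 3.08e-05, and the nearest peak was 84.6 kb away in replicate 1 and 7.98 kb away in replicate 2. The next such peaks, 5926701 to 5927003 (q-value 0.000110) and 5706407 to 5706975 (q-value 0.000147), had a peak of each replicate within 5.73 kb. At the other end, the weakest peak met in both spanned 14611963 to 14613002, with a q-value of 2.67e-05.

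**Figure D3:**
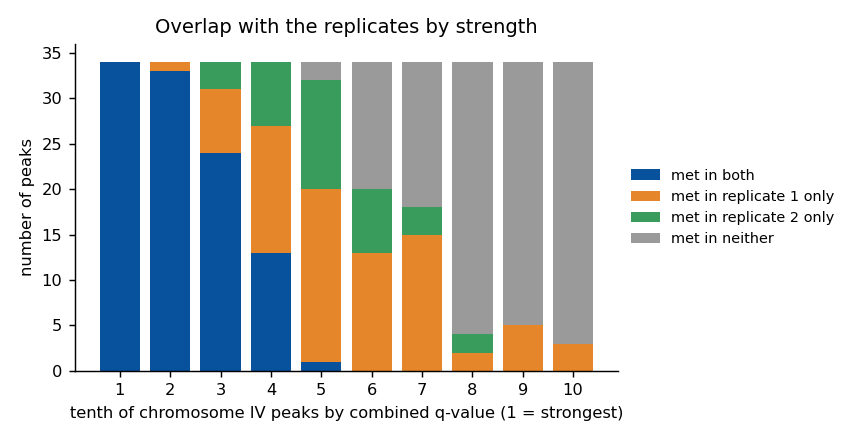
Number of chromosome IV peaks in each of 10 classes by combined q-value, 34 peaks a class with the strongest at 1, split by the replicates that met them. Peaks met in both fill class 1 (34 of 34) and number 1 in class 5, and peaks met in neither make up 30 of class 8 and 31 of class 10.

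Where both replicates met the same IV peak of the combined list, their own peaks lay close together by the median. Of the 105 peaks met in both, 102 were met by exactly 1 peak in each replicate. Over these 102 the starts of the replicate peaks differed by a median of 40 bp and the ends by a median of 43 bp, and all 102 pairs overlapped each other directly. Both peaks of a pair had to overlap the same combined peak, so a short distance is partly built in. Some pairs lay further apart: at 16491451 to 16492828 the start was 16492058 in replicate 1 and 16491454 in replicate 2. The median width was 523.5 bp in the combined list, 425 bp in replicate 1 and 405.5 bp in replicate 2, and the combined list drew the region wider than both replicates in 86 cases. The combined q-value was smaller than both replicate values in all 102. Replicate 1 had the smaller q-value in 50 pairs and replicate 2 in 52. The paired q-values had a Spearman's rho of 0.653, and a Pearson's r of 0.837 after a −log10 transform, as a description over peaks that share their 2 libraries. Of the 20 strongest IV peaks of the combined list, 17 met one of the 20 strongest IV peaks of replicate 1, 17 met one of replicate 2, and 14 did both.

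**Figure D4:**
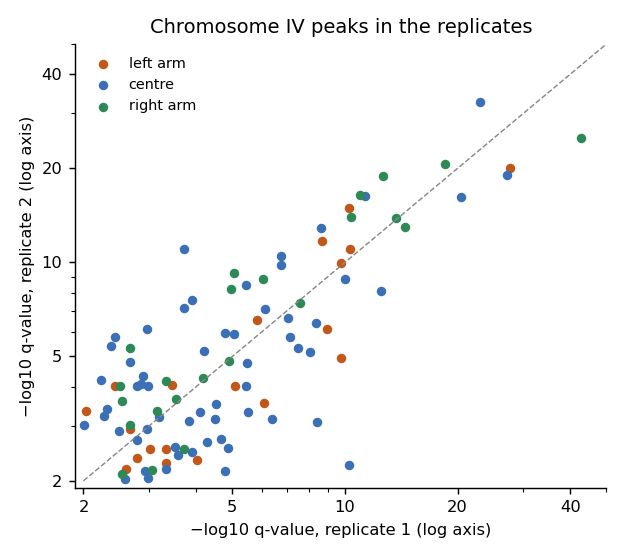
The −log10 q-value in replicate 2 against that in replicate 1, both on log axes, for the 102 chromosome IV peaks met by 1 peak in each replicate, coloured by arm or centre, with the dashed line marking equal values. Points fall on both sides of the line (50 smaller in replicate 1 by q-value, 52 in replicate 2), and the strongest pair lies at 1.60e-43 in replicate 1 and 1.14e-25 in replicate 2.

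Seen from the replicate lists, 107 of the 199 IV peaks of replicate 1 met a replicate 2 peak (53.8%, 46.6 to 60.8%), against 55.8% of that whole list. Of the 142 IV peaks of replicate 2, 107 met a replicate 1 peak (75.4%, 67.4 to 82.2%), against 72.4% of that whole list. The combined list left out 12 of the IV peaks of replicate 1 and 1 of replicate 2. The other chromosomes had at most 10 and at most 1 left out, and over all chromosomes the combined list met 96.1% of replicate 1 peaks and 99.5% of replicate 2 peaks. The peaks left out were weak. The 3 strongest in replicate 1 spanned 9247455 to 9247606, 13289370 to 13289687 and 5805573 to 5805846, with q-values of 0.00184, 0.00314 and 0.00360, and none was met in replicate 2. The one in replicate 2 spanned 8529064 to 8529731, with a q-value of 0.00944.

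IV peaks came in groups about as often as those of the whole list. The gap between neighbours, from the end of one to the start of the next, had a median of 23.7 kb with quartiles of 4.46 and 63.1 kb, against a median of 22.2 kb with quartiles of 3.44 and 73.7 kb on the other chromosomes. Of 339 gaps on IV, 94 (27.7%, 23.0 to 32.8%) were 5 kb or shorter, against 29.1% elsewhere. The shortest was 227 bp, and over all chromosomes the shortest gap was 202 bp in the combined list, 201 bp in replicate 1 and 203 bp in replicate 2. Joining peaks across gaps of up to 5 kb gave 246 groups on IV, of which 186 were single peaks, 38 pairs, 15 triplets, 6 groups of 4 and 1 group of 9. In all, 154 of the 340 peaks (45.3%) had at least 1 companion, against 46.0% of all combined peaks.

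Grouped peaks on IV were stronger and better supported than single ones. Of the 154 grouped peaks, 64 (41.6%, 33.7 to 49.8%) were met in both replicates, against 41 of the 186 single peaks (22.0%, 16.3 to 28.7%). On the other chromosomes these shares were 35.9% of grouped and 24.7% of single peaks. The median q-value was 1.15e-05 for grouped and 0.000434 for single IV peaks, and the median width 447 bp and 345.5 bp. Of the 38 strong IV peaks, 30 (78.9%) had a companion, against 124 of the 302 others (41.1%), and elsewhere 99 of 147 strong peaks (67.3%) had one. Neighbours share their surroundings and libraries, so these shares were not tested.

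The group of 9 lay in the centre, from 9607844 to 9620016, and its peaks covered 50.6% of 12.2 kb, with gaps of 240 to 1834 bp. It held the second and the seventh strongest IV peaks, 9615196 to 9616018 and 9616554 to 9618393, which were 535 bp apart and have their values above. To their right, the peak at 9618792 to 9619204 had a combined q-value of 6.54e-16, with 4.07e-09 in replicate 1 and 3.87e-07 in replicate 2. On the left flank, the peaks at 9607844, 9608750 and 9610769 were also met in both replicates, with combined q-values of 9.38e-10, 1.77e-12 and 6.77e-08. The last 3, starting at 9613128, 9613853 and 9619797, were met in replicate 1 only, with combined q-values from 1.24e-05 to 0.000241. Replicate 1 thus called all 9 members, and replicate 2 called 6.

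The run with the most strong peaks lay on the right arm. It was picked out after its values were seen, by joining strong peaks across gaps of up to 25 kb. Between 13695496 and 13719324, within 23.8 kb, lay 4 of the 15 strongest IV peaks, at ranks 6, 8, 10 and 12. The first has its values above. The peak at 13699165 to 13699885 had a combined q-value of 1.04e-27, with 3.15e-15 in replicate 1 and 1.05e-13 in replicate 2. The peak at 13703904 to 13704521 had 2.32e-29, with 2.32e-13 in replicate 1 and 1.40e-19 in replicate 2, and the peak at 13718782 to 13719324 had 2.17e-28, with 1.10e-11 in replicate 1 and 3.22e-17 in replicate 2. Only 1 other peak lay among them, at 13716782 to 13717144, with a combined q-value of 2.89e-08, and it too was met in both. The last combined peak before this run was 146 kb away.

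**Figure D5:**
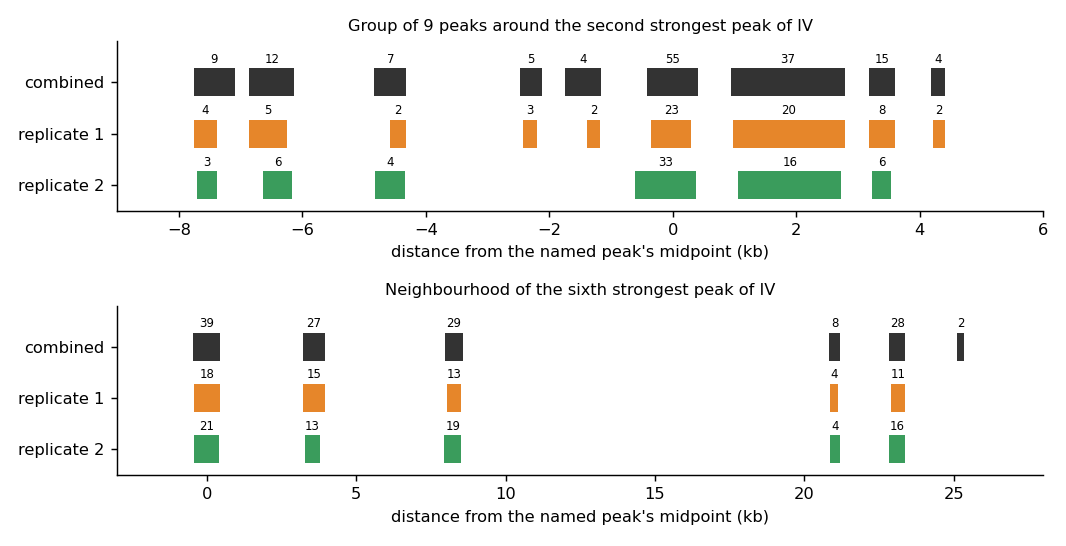
Peaks of the combined list, replicate 1 and replicate 2 drawn to scale as bars, by distance in kb from the midpoint of the second strongest (upper) and the sixth strongest (lower) chromosome IV peak, each labelled with its −log10 q-value rounded to a whole number. Replicate 1 matches all 9 bars of the upper group and replicate 2 matches 6, while in the lower run both replicates match every combined peak except the last, 13721062 to 13721284 (q-value 0.00355).

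Another such run on the right arm, from 16396579 to 16401478, held 3 strong peaks in 4.90 kb, of which 16399773 to 16401478 and 16397688 to 16398645 ranked 9 and 15 on IV. The stronger of these had a combined q-value of 4.38e-29, with 2.18e-14 in replicate 1 and 1.51e-14 in replicate 2. The other had a combined q-value of 4.01e-26, with 4.04e-11 in replicate 1 and 1.13e-14 in replicate 2. On the left arm, 3438004 to 3441287 held 3 strong peaks in 3.28 kb, with combined q-values of 2.33e-16, 3.93e-20 and 6.27e-18. In the centre, a pair lay within the run from 12531407 to 12540627, beside the 3 in the group of 9. Together, 15 of the 38 strong IV peaks (39.5%) stood in 5 such runs. The share was 12.8% on X, where strong peaks were most numerous, and from 35.0% to 53.3% on the other chromosomes.

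Long stretches of IV had no peak at all. The longest, from 15651140 to 16382078 on the right arm, was 731 kb and in the combined list 1 gap on the other chromosomes was longer, of 900 kb on II. The run of strong peaks at 16396579 began 14.5 kb beyond its end. The next were 431 kb from 15040221, also on the right arm, 407 kb from 12605718, across the bound between centre and right arm, 387 kb from 3637017, across the bound of the left arm, and 295 kb from 1094487 on the left arm. No peak of either replicate lay wholly within any of these 5 gaps.

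The median width of the IV peaks was 388.5 bp with an interval of 363 to 408 bp, against 413.5 bp on the other chromosomes together and 377 bp on V, the lowest of them, and on IV the quartiles were 297 and 535.5 bp. Only 14 of 340 (4.12%, 2.27 to 6.81%) were 1 kb or wider, against 107 of 1508 on the other chromosomes (7.10%, 5.85 to 8.51%), the lowest share of the 6 chromosomes. The intervals overlap and the difference was not tested. All 5 of the widest were among the 15 strongest: besides 14032486, 761611 and 3232633, at 2502, 2405 and 2102 bp, these were 9616554 (1840 bp) and 1548416 (1783 bp), named by their starts. Of the 14, 13 were met in both replicates, and the exception was 4024100 to 4025102, met in replicate 1 only. Width alone did not make a peak strong, since 14611963 to 14613002, at 1040 bp, ranked 140 on IV. The strong peaks had a median width of 676.5 bp, against 364 bp for the other IV peaks, and made up 21.5% of the covered bases. Of 89 peaks under 300 bp, 3 were met in both. The narrowest, 10473532 to 10473572, was 41 bp wide, with a q-value of 0.00528, and was met in neither replicate.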

How the data were processed

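The 3 peak lists, of ChIP replicates 1 and 2 and a combined list, were used as deposited. Per the file headers, PeakSeq called the peaks and positions refer to WormBase WS220. The only deposited value is a q-value per peak, below 0.01 throughout, used to order peaks within a list. Comment lines record a liftover from another build, and none of the peaks they name as changed is on IV. Not given in the sources used here are the aligner, the use of Input and how the combined list was made. Depth is unknown, so no precision from reads could be given.

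The regions named are the 15 strongest and 5 widest peaks on IV, groups of 5 or more, the 5 longest gaps, the strongest peak of each domain, the 3 strongest peaks met in neither replicate and the 3 strongest replicate peaks per list that the combined list missed. Others named were picked after their values were seen. The members and lists were chosen with earlier results of these data known. Ranks follow the q-value, and where a region met several replicate peaks the one that shared the most bases with it is given. Alternatives were other lists, thresholds, overlap rules, domain bounds and join distances, and leaving out each replicate. Values were computed in Python 3.11.15 with NumPy 2.4.6 and SciPy 1.17.1 and plotted with matplotlib 3.10.9, and the overlap and grouping code was tested on simulated lists.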

Additional observations from a re-analysis of the deposited data

How the results depend on the processing

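Of 37 alternatives, 26 kept each value within its interval, 10 moved it and 1 turned it round. The share of combined peaks on IV stayed between 18.1% and 19.6% in all 8. The ratio of centre to arm density stayed between 1.16 and 1.27 in 8 of 9 alternatives and was 0.899 for the 38 strong peaks, a subset added after the data were seen. The share of IV peaks met in both replicates was 46.7% at q-values under 0.001, where the same 105 peaks were counted out of 225 instead of 340. Meeting 1 replicate alone gave 40.9% to 54.1%, by construction. The share of IV among the strongest 10% was 29.5% in replicate 2 and 32.1% among peaks met in both. In the combined list, IV held 25% of the strongest 5% but 17.8% of the strongest 20%. Gaps up to 2 kb and 10 kb made up 15.3% and 35.99%, below and above the share at 5 kb by construction. Gaps up to 5 kb made up 21.7% in replicate 1, a shorter list. The median width was 477.5 bp in the stronger 50% and 525 bp among peaks met in both. Apart from those noted, the cause was not tested. No paired analysis was possible because no peak list stands for the Input group. Unknown depth limits every comparison between the lists.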
